A study of Mus musculus with 24 samples.

Results

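The 24 h interleukin 4 (IL4) response of bone marrow-derived macrophages (BMDM) labelled Tet2 knockout was measured in 4 RNA libraries of the 24 samples in the series: 2 from knockout cultures exposed to IL4 for 24 h and 2 from untreated knockout cultures (0 h). They were chosen by their labels alone. All were grown for 7 days from marrow of C57BL/6 mice in medium with L929-conditioned supernatant and M-CSF, and moved to plain DMEM with serum the night before IL4 was added at 20 ng/ml. RNA was sequenced after removal of ribosomal RNA. Beside these, 2 knockout libraries at 10 h are given as values, and 4 wild-type libraries (2 after 24 h of IL4, 2 untreated), handled alike, serve to test whether the knockout response differed. The labels give no allele, age or number of animals, and nothing in them says how marrow was shared among cultures, so p-values measure the spread between these samples. No knockout culture was kept for 24 h without IL4 among these groups, and IL4 cannot be told apart from 24 further hours in culture.

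Tet2 is an enzyme that oxidises 5-methylcytosine in DNA. IL4 is a type 2 cytokine. It binds the IL4 receptor alpha chain, which pairs with the common gamma chain or with the IL13 receptor alpha 1 chain, and the attached JAK kinases phosphorylate STAT6. STAT6 then enters the nucleus and binds DNA, and macrophages take up the state called alternative activation, marked by arginase, chitinase-like proteins and resistin-like molecule alpha.

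Values are FPKM (fragments scaled to transcript length and to the library's total), so levels of different genes are per length. Changes and differences are on the log2(FPKM + 1) scale with their standard error (SE), which understates the change of low genes. A gene rose or fell where its limma p, with Benjamini-Hochberg adjustment across 10510 tested genes, was under 0.05. The 4 libraries listed 9877 to 9930 genes at 1 FPKM or more, and their estimated depth was 0.841 to 1.08 times that of the first untreated library. The estimate is the inverse of the most common ratio to that library among genes of very low mean FPKM. Replicates correlated at r = 0.99 after 24 h of IL4 and at 0.993 untreated, over all genes on the log2 scale. The RNase P RNA gene Rpph1 took 11.9% and 11.4% of all FPKM after 24 h of IL4, against 15.4% and 14.9% untreated. 

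The targeted gene did not mark the genotype. Tet2 stood at 11.3 and 10.3 FPKM after 24 h of IL4 and at 4.02 and 4.48 FPKM untreated in the labelled knockout. In wild type it stood at 9.38 and 9.82 FPKM after 24 h and at 4.11 and 5.91 FPKM untreated. A gene-level value need not fall when part of a gene is deleted, so the genotype is given as labelled. Within the labelled knockout, Tet2 itself rose by 1.17 ± 0.13 (SE, n = 2 each; limma adjusted p = 5.3e-05). Its relative Tet3 had a change of 0.09 ± 0.20 (limma adjusted p = 0.75), and Tet1 was below 0.02 FPKM in every knockout library.

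All 11 macrophage markers were at 1 FPKM or more in each of the 4 libraries. Their summed level was 7585 and 7677 FPKM after 24 h of IL4, against 16670 and 15810 FPKM untreated, most of it from the lysozyme gene Lyz2. Of the 11, 7 fell, and the F4/80 gene Emr1, the integrin Itgam and the M-CSF receptor Csf1r did not pass. Fibroblast markers summed to 12.9 and 12.97 FPKM after 24 h of IL4, against 32.9 and 29.9 FPKM untreated, and all 4 that could be tested fell. Neutrophil markers summed to 58.0 and 95.3 FPKM, against 114 and 128 FPKM untreated. The T and NK cell list held almost only Cd4, with the CD3 gamma gene Cd3g, Gzma and Klrb1c at 0 in all 4 libraries, and erythroid and mast cell markers were below 1 FPKM each except the receptor gene Epor. In bulk RNA, fewer cells of a type and less RNA per cell cannot be told apart.

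The response was broad. Of 10510 genes tested, 4590 (43.7%) passed, 2789 rose (26.5%) and 1801 fell (17.1%). Genes with groups that did not overlap numbered 8346 (79.4%), of which 4812 (45.8%) were above and 3534 (33.6%) below untreated. Rises made up 60.8% of calls, 54.5% after median-of-ratios scaling and 48.3% after quantile normalization, so the balance of rises and falls depends on the scaling. By at least 1 on the log2 scale 603 genes rose (5.74%) and 377 fell (3.59%). By at least 2, 139 rose (1.32%) and 47 fell (0.447%). By at least 3, 55 rose (0.523%) and 13 fell (0.124%), and by at least 4, 25 rose (0.238%) and 5 fell (0.0476%). The median change over all genes was 0.07. The genes that rose took 30.9% and 30.4% of all FPKM after 24 h of IL4, against 16.6% and 16.3% untreated, and those that fell took 9.52% and 8.86%, against 19.9% and 19.6%.

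The 15 largest rises began with Retnla. It encodes resistin-like molecule alpha and reached 4910 and 7317 FPKM after 24 h of IL4, against 13.3 and 15.3 FPKM untreated, a 428-fold difference of means. It was the gene with the third highest mean FPKM after 24 h, where it ranked 3208 untreated. Ear11, an eosinophil-associated ribonuclease gene, had 295 and 421 FPKM against 0.511 and 0.493 FPKM untreated, and the related Ear2 54.4 and 75.8 FPKM against 0.472 and 0.0542 FPKM. Arg1, the arginase of alternatively activated macrophages, had 373 and 417 FPKM against 1.63 and 1.45 FPKM untreated. The lectin gene Mgl2 had 295 and 342 FPKM against 1.97 and 1.32 FPKM, and Chi3l3, a chitinase-like protein, 284 and 299 FPKM against 2.90 and 2.92 FPKM. In each of these the 2 groups lay far apart compared with their replicates. The Ear genes, Chi3l3 with Chi3l4, and Mgl2 with Clec10a have close relatives, and how reads shared between copies were counted is not given in the sources used here, so their split among copies is uncertain.

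Among the other leading rises, the eotaxin gene Ccl24 had 337 and 373 FPKM after 24 h of IL4, against 2.40 and 3.01 FPKM untreated. Itgax, the CD11c integrin, had 63.6 and 68.1 FPKM against 0.201 and 0.367 FPKM. Cd74, the invariant chain of MHC class II, had 478 and 526 FPKM against 17.9 and 16.0 FPKM. Flt1, a receptor of vascular endothelial growth factor, had 21.4 and 24.99 FPKM against 0.0364 and 0.0675 FPKM, a change of 4.52 ± 0.11 (limma adjusted p = 5.5e-10). The endothelial marker list summed to 24.6 and 24.0 FPKM after 24 h of IL4, against 8.14 and 7.64 FPKM untreated, mostly from Vwf, and its part in the Flt1 result was not tested. Scn3a, a sodium channel subunit gene, had 25.8 and 23.3 FPKM against 0.0548 and 0.0431 FPKM, and Tmem26, which encodes a transmembrane protein, 39.4 and 41.4 FPKM against 0.149 and 0.162 FPKM. Scn3a, Tmem26 and Flt1 were thus nearly absent from the untreated libraries.

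**Figure D1:**
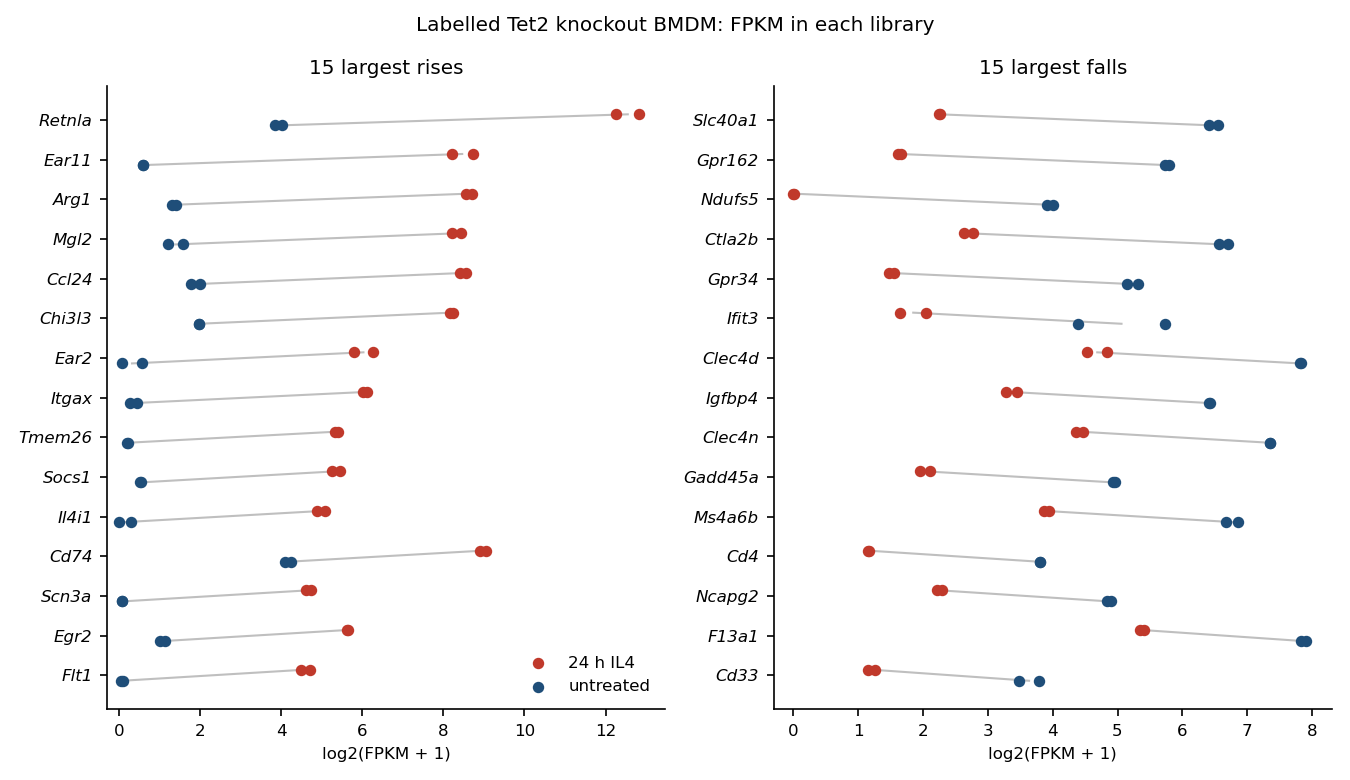
FPKM of the 15 largest rises and the 15 largest falls in labelled Tet2 knockout BMDM, as log2(FPKM + 1) on the horizontal axis. Points are single libraries after 24 h of IL4 (red, upper) and untreated (blue, lower), and grey lines join the group means. The 2 groups do not overlap for any gene shown, and Ifit3 has untreated replicates furthest apart, at 52.1 and 20.0 FPKM.

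Among the 15 largest falls, Slc40a1, the iron exporter ferroportin, had 3.76 and 3.82 FPKM after 24 h of IL4, against 84.4 and 92.3 FPKM untreated, a change of -4.22 ± 0.10 (limma adjusted p = 5.5e-10). Gpr34, a lysophosphatidylserine receptor, had 1.78 and 1.92 FPKM against 34.4 and 38.7 FPKM, and Igfbp4, an insulin-like growth factor binding protein, 9.97 and 8.73 FPKM against 84.4 and 85.4 FPKM. Ctla2b, a cysteine protease inhibitor gene, had 5.22 and 5.85 FPKM against 103 and 93.5 FPKM, Gadd45a, a stress-induced gene, 2.87 and 3.34 FPKM against 29.4 and 30.2 FPKM, and Cd33, a sialic acid-binding lectin, 1.24 and 1.39 FPKM against 10.2 and 12.9 FPKM. Some of the falls were of genes that stand next to each other on mouse chromosome 6 in RefSeq's GRCm38.p6 gene list. Gpr162, an orphan receptor gene, had 2.17 and 2.07 FPKM after 24 h of IL4, against 52.0 and 54.3 FPKM untreated, and its neighbour Cd4 1.26 and 1.22 FPKM against 12.97 and 12.99 FPKM. The adjacent lectin genes Clec4n and Clec4d had 21.1 and 19.6, and 22.2 and 27.6 FPKM, against 162 and 162, and 223 and 227 FPKM untreated. Ndufs5, a respiratory chain subunit gene, had erratic values: it was listed at 0.00237 and 0.00597 FPKM after 24 h of IL4, against 15.1 and 13.99 FPKM untreated. In the untreated wild-type libraries it was at 9.75 and 0.0714 FPKM, and it lost its call without any 1 of the 4 knockout libraries.

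Components of the receptor pathway moved in both directions, with 5 of 16 tested members higher, 4 lower and 7 not passing. Over all genes 26.5% rose and 17.1% fell, the shares to set beside the counts of each list. The pathway's median change was 0.14, which turns to -0.01 after quantile normalization. Without the second 24 h library 2 fell. The receptor chain Il4ra fell to 21.5 and 18.8 FPKM after 24 h of IL4, against 37.9 and 39.6 FPKM untreated, and at 10 h it stood at 51.6 and 42.3 FPKM. Il13ra1, the chain of the type II receptor, fell to 0.771 and 1.11 FPKM, against 5.48 and 5.39 FPKM. The common gamma chain Il2rg rose to 40.03 and 40.08 FPKM, against 20.0 and 20.3 FPKM, and the kinase Jak2 to 21.5 and 23.1 FPKM, against 7.81 and 8.62 FPKM. Stat6 had 42.2 and 44.3 FPKM after 24 h of IL4 and 45.4 and 44.7 FPKM untreated, with a change of -0.06 ± 0.13 (limma adjusted p = 0.75).

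Of 4 feedback inhibitors of cytokine signalling, Socs1, Socs2 and Cish rose and Socs3 did not pass. Socs1 had 42.4 and 37.2 FPKM after 24 h of IL4, against 0.443 and 0.42 FPKM untreated, and stood higher still at 10 h, at 64.0 and 59.2 FPKM. Socs2 had 7.10 and 8.16 FPKM against 0.263 and 0.409 FPKM, and Cish 4.84 and 4.84 FPKM against 0.0223 and 0.129 FPKM. These 3 rose by 4.83 ± 0.22, 2.69 ± 0.10 and 2.44 ± 0.17 on the log2 scale. Socs3 had 2.35 and 2.93 FPKM against 3.36 and 3.03 FPKM.

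Of 26 effectors of alternative activation, 24 could be tested and 23 rose, at a median change of 3.18, beside 0.07 over all genes. All 24 lay above untreated in both libraries, beside 45.8% of all genes. The list was chosen with earlier results of these data known. Members such as Itgax and Ear11 were below 1 FPKM in every untreated library of both genotypes. They could be tested only through IL4-treated libraries, which favours a rise, so these counts are a description. Besides the leading genes, the PD-1 ligand gene Pdcd1lg2 had 15.03 and 15.43 FPKM after 24 h of IL4, against 0.0750 and 0.0725 FPKM untreated, and Slc7a2, an arginine transporter, 26.2 and 26.5 FPKM against 0.785 and 0.729 FPKM. Mrc1, the mannose receptor, was already high untreated, at 549 and 527 FPKM after 24 h against 286 and 294 FPKM. Tgm2, a transglutaminase used as a marker of this state, had 22.7 and 22.3 FPKM against 20.6 and 18.6 FPKM and did not pass (0.19 ± 0.13, limma adjusted p = 0.26). The chemokine genes Ccl17 and Ccl22 rose to low levels, of 2.01 and 3.20 FPKM and of 3.34 and 4.804 FPKM after 24 h, against less than 0.1 FPKM in each untreated library. At 10 h the list had a median change of 1.46, less than the 3.18 at 24 h. Arg1 stood at 71.7 and 79.6 FPKM at 10 h, Chi3l3 at 21.0 and 23.3 FPKM and Mmp12 at 5.87 and 8.52 FPKM, while Ccl24 had reached 247 and 216 FPKM.

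STAT6 binds palindromes in which TTC and GAA are parted by a spacer of 4 bases, searched here as TTCNNNNGAA, which is its own reverse complement. Windows of 250 bases before to 50 after a RefSeq start (GRCm38.p6, another build than the mm9 of the files) were found for 8396 of the genes tested, and a gene counts where any of its windows holds a match. The letters were present for 6.54% of all genes, 7.09% of those that rose and 6.52% of those that fell. Among genes that rose by at least 4 on the log2 scale they were present for 4 of 17 (23.5%), and among effectors for 5 of 15 (33.3%), namely Retnla, Itgax, Ccl17, Pdcd1lg2 and Il1rn. Among members of IL4 receptor signalling they were present for 0 of 15. The like letters with a spacer of 3, TTCNNNGAA, were also more frequent in the first 2 sets. They were present for 2 of 17 (11.8%) and 3 of 15 (20.0%), beside 8.25% of all genes. The effectors' windows had a median G and C content of 48.0%, beside 60.7% over all genes, and its part in these shares was not tested. A match is a description of letters, not a site. The windows of the leading rises Retnla, Itgax and Tmem26 are shown because each holds the palindrome, in capitals, at 145 bases before the start in Retnla, at 127 in Itgax, and at 227 and 41 in Tmem26. They lie at chr16:48842359-48842658 (Retnla), chr7:128129300-128129599 (Itgax) and chr10:68723496-68723795 (Tmem26), all on the plus strand of GRCm38.p6, and read 5′ to 3′.
Retnla: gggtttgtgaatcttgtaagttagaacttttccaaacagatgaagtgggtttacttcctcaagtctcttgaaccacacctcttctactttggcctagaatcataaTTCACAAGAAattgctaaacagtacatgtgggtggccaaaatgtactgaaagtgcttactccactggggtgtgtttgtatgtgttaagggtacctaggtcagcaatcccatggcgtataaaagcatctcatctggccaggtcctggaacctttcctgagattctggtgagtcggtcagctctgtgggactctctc
Itgax: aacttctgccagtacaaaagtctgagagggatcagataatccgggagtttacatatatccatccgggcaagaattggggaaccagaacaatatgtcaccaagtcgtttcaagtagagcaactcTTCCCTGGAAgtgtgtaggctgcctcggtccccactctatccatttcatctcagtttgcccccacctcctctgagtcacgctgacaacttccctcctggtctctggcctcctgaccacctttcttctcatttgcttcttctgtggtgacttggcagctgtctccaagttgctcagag
Tmem26: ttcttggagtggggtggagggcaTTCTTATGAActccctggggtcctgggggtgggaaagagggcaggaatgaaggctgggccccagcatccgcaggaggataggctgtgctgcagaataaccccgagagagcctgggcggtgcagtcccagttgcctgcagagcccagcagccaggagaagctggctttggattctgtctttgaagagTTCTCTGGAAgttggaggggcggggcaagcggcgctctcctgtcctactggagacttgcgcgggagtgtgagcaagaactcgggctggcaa

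Transcription factors tied to alternative activation rose in 13 of 19 tested and fell in 4. Egr2, a zinc finger factor, had 47.9 and 49.2 FPKM after 24 h of IL4, against 1.19 and 1.03 FPKM untreated. Irf4, an interferon regulatory factor of this state, had 26.7 and 24.9 FPKM against 0.989 and 1.22 FPKM, and Batf3, a partner of AP-1 proteins, 58.7 and 61.6 FPKM against 1.501 and 2.803 FPKM. Bhlhe40, a repressor of the helix-loop-helix family, rose by 2.96 ± 0.10, whereas its relative Bhlhe41 fell by 1.56 ± 0.15. Maf, a factor of resident macrophages, fell to 16.2 and 17.0 FPKM, against 70.4 and 74.6 FPKM, and Prdm1, a repressor, fell by 0.53 ± 0.11. Egr2, Irf4 and Batf3 did not overlap between the groups, which also held for 79.4% of all genes. Pparg, the fatty acid receptor, had 43.8 and 51.0 FPKM against 31.0 and 28.8 FPKM.

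Genes of macrophage fusion rose in 8 of 14 and fell in 1. After median-of-ratios scaling 2 fell, and 3 fell after quantile normalization or with only the libraries compared. IL4 is known to drive macrophages to fuse into giant cells, for which the membrane protein DC-STAMP is needed. Dcstamp had 22.5 and 25.9 FPKM after 24 h of IL4, against 0.145 and 0.224 FPKM untreated, and Ocstamp 15.9 and 16.2 FPKM against 0.0544 and 0.0315 FPKM. Both were low at 10 h, at 1.17 and 2.21 FPKM and at 1.16 and 1.13 FPKM. Atp6v0d2, a proton pump subunit, had 179 and 199 FPKM against 20.8 and 20.8 FPKM, and the integrin Itgb3 14.9 and 14.1 FPKM against 2.90 and 2.90 FPKM. The inhibitory receptor Sirpa fell to 277 and 275 FPKM, against 437 and 428 FPKM.

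All 8 genes of MHC class II presentation rose, at a median change of 2.62. The class II chains H2-Aa and H2-Ab1 had 53.4 and 65.5, and 33.7 and 44.0 FPKM after 24 h of IL4, against 8.87 and 6.72, and 6.24 and 4.54 FPKM untreated. H2-DMa, which loads peptides, had 54.5 and 52.98 FPKM against 4.77 and 4.97 FPKM. Ciita, the factor that switches these genes on, had 6.25 and 5.81 FPKM against 0.24 and 0.0976 FPKM. Cd74 had already reached 103 and 120 FPKM at 10 h, while H2-Aa then stood at 9.91 and 9.26 FPKM. Dendritic cell markers summed to 189 and 207 FPKM after 24 h of IL4, against 196 and 135 FPKM untreated, almost all of it the interferon-responsive Bst2, with the migration receptor Ccr7 at 0 in 3 of the 4 libraries. Their part in the class II result was not tested. MHC class I presentation moved less, with 6 of 16 higher, 2 lower and a median of 0.33. None fell when any 1 of the 4 knockout libraries was left out. Its risers were led by the immunoproteasome subunit Psmb10, at 122 and 131 FPKM against 44.6 and 39.97 FPKM.

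**Figure D2:**
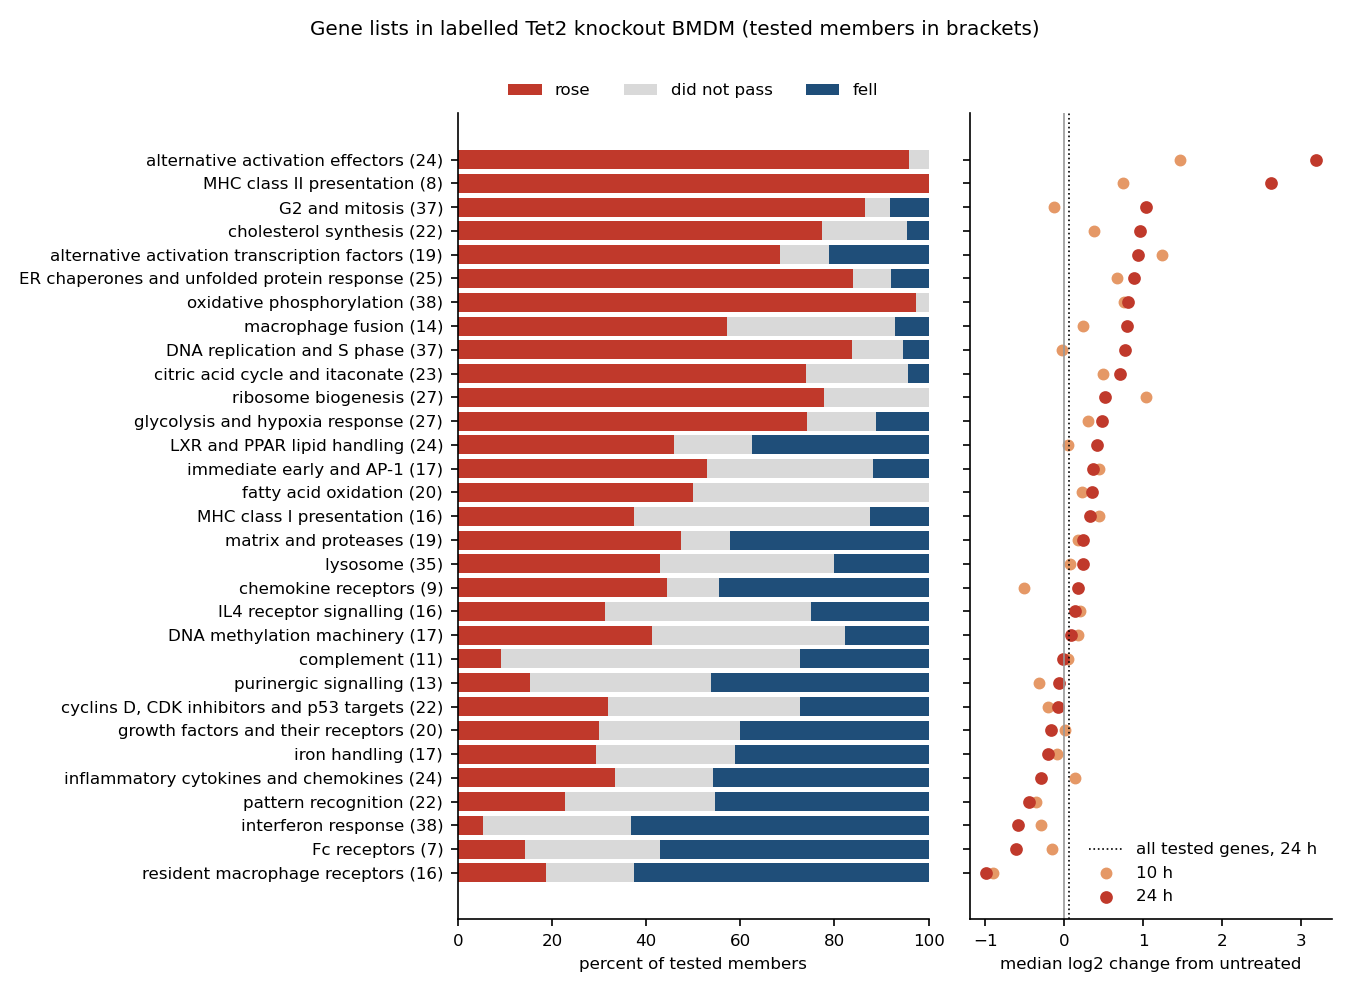
Left, the percent of tested members of each gene list that rose (red), did not pass (grey) or fell (blue) after 24 h of IL4 against untreated labelled knockout BMDM, with the number tested in brackets. Right, the median log2 change from untreated at 24 h (red) and 10 h (orange), with the median of all tested genes at 24 h as a dotted line. Effectors stand highest at 3.18 and receptors of resident macrophages lowest at -0.98.

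Receptors and products of resident macrophages fell, 10 of 16 tested, with 3 higher and a median change of -0.98. Stab1, a scavenger receptor, had 48.1 and 44.0 FPKM after 24 h of IL4, against 224 and 241 FPKM untreated. F13a1, a subunit of coagulation factor XIII, had 39.8 and 41.4 FPKM against 226 and 240 FPKM, Gas6, a ligand for uptake of dead cells, 73.8 and 65.1 FPKM against 353 and 347 FPKM, and Sepp1, selenoprotein P, 1363 and 1408 FPKM against 4206 and 4599 FPKM. Scavengers of lipids were among the exceptions: Cd36 rose to 481 and 533 FPKM, against 177 and 173 FPKM, and Msr1 to 68.9 and 73.3 FPKM, against 44.2 and 40.8 FPKM. At 10 h the median was -0.90, close to that at 24 h. Stab1, F13a1, Gas6 and Sepp1 were nonetheless lower at 24 h than at 10 h.

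Pattern recognition receptors divided by member, with 10 of 22 lower and 5 higher. The C-type lectins Clec4d, Clec4n and Clec4e fell by 3.13 ± 0.13, 2.94 ± 0.14 and 1.53 ± 0.11, and Clec4e is the next gene after Clec4d on chromosome 6. Clec7a, the beta-glucan receptor Dectin-1, rose to 379 and 411 FPKM after 24 h of IL4, against 83.0 and 80.1 FPKM untreated. Among Toll-like receptors, Tlr2 fell to 9.90 and 10.2 FPKM, against 54.4 and 47.9 FPKM, and Tlr7 to 20.4 and 19.0 FPKM, against 58.2 and 59.1 FPKM. Tlr4, the endotoxin receptor, rose to 104 and 101 FPKM, against 59.2 and 55.1 FPKM, whereas its co-receptor Cd14 fell to 32.8 and 35.4 FPKM, against 142 and 124 FPKM. Of 7 Fc receptor genes 4 fell and 1 rose, and 2 fell without the first untreated, the second untreated or the second 24 h library. The high-affinity receptor Fcgr1 fell to 17.3 and 19.2 FPKM, against 54.2 and 40.6 FPKM, and the inhibitory Fcgr2b rose to 148 and 168 FPKM, against 95.6 and 108 FPKM.

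Of 11 complement genes tested 1 rose, 3 fell and 7 did not pass. Over all genes 26.5% rose and 17.1% fell. After median-of-ratios scaling 2 complement genes rose, and 3 rose with only the libraries compared. In the main fit C3, the central component, rose to 61.0 and 61.1 FPKM after 24 h of IL4, against 7.28 and 5.76 FPKM untreated. The anaphylatoxin receptor C5ar1 fell to 16.0 and 15.4 FPKM, against 44.2 and 45.5 FPKM.

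Cytokine and chemokine genes moved in both directions, 11 of 24 down and 8 up. Among the chemokines that rose, Ccl7 had 81.6 and 91.3 FPKM after 24 h of IL4, against 5.16 and 5.79 FPKM untreated, Ccl8 234 and 252 FPKM against 26.1 and 21.2 FPKM, and Ccl9 640 and 713 FPKM against 133 and 121 FPKM. Ccl7 stood higher at 10 h, at 243 and 282 FPKM, than at 24 h. The members that fell included the chemokines Ccl3 (15.5 and 16.2 FPKM, against 54.0 and 53.1 FPKM) and Cxcl16 (15.9 and 15.5 FPKM, against 42.2 and 36.9 FPKM) and the inflammasome sensor Nlrp3 (2.87 and 2.35 FPKM, against 6.22 and 6.13 FPKM). Tnf fell by 0.58 ± 0.11. The list's median of -0.30 becomes 0.64 when genes of low mean are left out. Among chemokine receptors 4 of 9 rose and 4 fell, and 2 rose without the second untreated or the second 24 h library. Ccr1 rose to 10.2 and 11.1 FPKM after 24 h of IL4, against 3.65 and 3.94 FPKM untreated, and Cxcr4, the receptor of CXCL12, fell to 42.4 and 44.3 FPKM, against 162 and 159 FPKM.

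Interferon response genes fell in 24 of 38 tested and rose in 2, at a median of -0.58. The count depends on single libraries. Without the first untreated library 12 fell and 5 rose, while without the first 24 h library 14 fell. Ifit3 had 2.14 and 3.15 FPKM after 24 h of IL4, against 52.1 and 20.0 FPKM untreated, and Ifit2 7.19 and 9.40 FPKM against 50.5 and 20.7 FPKM. The untreated replicates of these genes were far apart. Rsad2, which encodes the antiviral protein viperin, had 5.01 and 6.32 FPKM against 23.9 and 15.8 FPKM. Members with closer untreated replicates also fell, such as Isg20, an RNA exonuclease gene, at 0.381 and 0.0726 FPKM against 1.45 and 1.45 FPKM. In the other direction, Gbp2, a guanylate-binding protein, had 44.1 and 47.2 FPKM against 18.1 and 13.7 FPKM, and Irf1 57.8 and 59.0 FPKM against 37.4 and 33.6 FPKM.

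The listed genes of mitochondrial respiration rose nearly as a block by modest amounts. Of 38 listed subunits of oxidative phosphorylation, a chosen part of all subunits, 37 rose, at a median change of 0.81. All 38 lay above untreated in both libraries, beside 45.8% of all genes. Ndufs5, a subunit that is not on the list, fell with the erratic values given above. Cytochrome c, Cycs, had 40.2 and 53.7 FPKM after 24 h of IL4, against 12.3 and 12.6 FPKM untreated, and Atp5b of the ATP synthase 464 and 492 FPKM against 204 and 191 FPKM. In the list of the citric acid cycle and itaconate 17 of 23 rose and Suclg2, a succinate-CoA ligase subunit, alone fell, by 0.49 ± 0.11. Idh3a, an isocitrate dehydrogenase subunit, had 13.8 and 16.0 FPKM against 4.12 and 4.40 FPKM, and the citrate synthase gene Cs 50.1 and 55.4 FPKM against 26.4 and 26.4 FPKM. Fatty acid oxidation had 10 of 20 higher, none lower and a median of 0.35; without the first untreated or the second 24 h library 6 rose. Its electron carrier Etfa had 18.4 and 22.2 FPKM against 9.94 and 9.78 FPKM. In the list of glycolysis and the hypoxia response 20 of 27 rose and 3 fell. The glycolytic enzymes Pfkp, Pgk1 and Eno1 rose by 1.81 ± 0.10, 1.44 ± 0.13 and 1.61 ± 0.23, while the hypoxia-responsive Vegfa and Ndrg1 fell by 0.90 ± 0.09 and 1.33 ± 0.12.

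Cholesterol synthesis rose in 17 of 22 tested, with 1 lower and a median of 0.96, and none lower when any 1 of the 4 knockout libraries was left out. Idi1 and Fdps, which make and join isoprene units, had 29.5 and 32.7, and 79.2 and 83.1 FPKM after 24 h of IL4, against 8.30 and 6.92, and 26.9 and 21.9 FPKM untreated. Cyp51, a sterol demethylase, had 26.4 and 27.8 FPKM against 6.86 and 6.41 FPKM. Lipid handling under the nuclear receptors LXR and PPAR divided, 11 of 24 up and 9 down. The 2 cholesterol exporters moved apart: Abcg1 had 104 and 98.9 FPKM against 27.2 and 27.4 FPKM, and Abca1 20.7 and 20.9 FPKM against 55.6 and 59.7 FPKM. The desaturase Scd2 had 26.3 and 26.5 FPKM against 2.08 and 1.94 FPKM. The lipoprotein lipase gene Lpl rose to 434 and 542 FPKM, against 148 and 132 FPKM, and its inhibitor Angptl4 fell to 2.76 and 3.16 FPKM, against 13.5 and 13.9 FPKM.

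Genes of protein folding in the endoplasmic reticulum rose in 21 of 25, with a median of 0.88. Sdf2l1, Pdia4 and Creld2, which assist folding, had 148 and 149, 183 and 182, and 46.3 and 49.9 FPKM after 24 h of IL4, against 36.8 and 36.0, 47.8 and 43.4, and 12.5 and 11.0 FPKM untreated. The sensor Atf6 fell by 0.48 ± 0.08 and the phosphatase subunit Ppp1r15a by 0.68 ± 0.08. Ribosome biogenesis rose in 21 of 27 with none lower. Its median was 0.51 at 24 h and 1.04 at 10 h, and Ddx21, a nucleolar helicase, had 19.7 and 22.3 FPKM at 24 h, between 31.4 and 31.1 FPKM at 10 h and 12.4 and 11.8 FPKM untreated. Lysosomal genes had 15 of 35 higher and 7 lower at a median of 0.24, where 26.5% of all genes rose and 17.1% fell. After quantile normalization 9 lysosomal genes were higher and 14 lower, with a median of -0.01. Without the first or second untreated library 9 rose, and without the second 24 h library 8. Cathepsin L, Ctsl, had 475 and 517 FPKM against 221 and 217 FPKM untreated, and the vacuolar pump subunit Atp6v1b2 201 and 212 FPKM against 85.7 and 87.4 FPKM.

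Iron handling genes moved in both directions. Besides ferroportin, the storage subunit Fth1 fell to 683 and 841 FPKM after 24 h of IL4, against 2027 and 2258 FPKM untreated, and the transferrin receptor Tfrc rose to 309 and 300 FPKM, against 48.8 and 50.5 FPKM. Of 17 genes 7 fell, 5 rose and 5 did not pass. In the list of purinergic signalling, which holds receptors and enzymes for nucleotides and adenosine, 6 of 13 fell and 2 rose. P2ry1, an ADP receptor, had 19.4 and 19.2 FPKM against 1.66 and 1.86 FPKM, and Adora2b, an adenosine receptor, 6.97 and 7.49 FPKM against 1.02 and 0.795 FPKM. Entpd1, the ATP-degrading CD39, fell by 1.72 on the log2 scale.

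Matrix genes and proteases had 9 of 19 higher and 8 lower. Fn1, fibronectin, had 25.4 and 26.1 FPKM after 24 h of IL4, against 2.33 and 2.08 FPKM untreated, and Mmp12, the macrophage elastase, 82.9 and 103 FPKM against 6.51 and 5.78 FPKM. Thbs1, thrombospondin, fell to 9.47 and 8.97 FPKM, against 45.8 and 42.3 FPKM. Growth factor genes had 8 of 20 lower and 6 higher, and both chains of the transforming growth factor beta receptor fell: Tgfbr1 to 13.4 and 13.1 FPKM, against 39.5 and 38.8 FPKM, and Tgfbr2 to 13.4 and 13.2 FPKM, against 43.8 and 45.1 FPKM. Pdgfc, a platelet-derived growth factor, fell by 1.61 ± 0.09. The summed fibroblast markers given above were also lower after 24 h of IL4, and their part in the matrix genes that fell was not tested. In the list of immediate early and AP-1 genes 9 of 17 rose and 2 fell, with the transcription factor gene Atf3 at 211 and 235 FPKM against 88.0 and 76.7 FPKM; without the first 24 h library 5 rose.

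Genes of cell division rose late. Of 37 tested genes of G2 and mitosis 32 rose, 3 fell and 2 did not pass, with a median change of 1.03 at 24 h and -0.13 at 10 h. DNA replication genes rose in 31 of 37 and fell in 2 (1 without either untreated library or the first 24 h library), with medians of 0.78 at 24 h and -0.03 at 10 h. Top2a, the topoisomerase that untangles chromosomes, had 12.6 and 13.98 FPKM after 24 h of IL4, 1.51 and 2.07 FPKM at 10 h and 2.63 and 2.34 FPKM untreated. Kif11, the motor that parts the spindle poles, had 3.31 and 3.96 FPKM after 24 h of IL4, against 0.564 and 0.491 FPKM untreated, and Mki67, which encodes the proliferation marker Ki-67, 3.12 and 3.52 FPKM against 0.609 and 0.649 FPKM. Rrm2, which makes deoxynucleotides, had 4.98 and 5.10 FPKM against 0.695 and 0.521 FPKM, and Uhrf1, which reads half-methylated DNA at replication forks, 8.08 and 7.52 FPKM against 1.12 and 1.21 FPKM. In all 5 the 24 h libraries stood apart from both earlier times. When only genes with a mean of 5 FPKM or more were tested, 1 gene of G2 and mitosis rose and 2 fell, since that filter leaves out most of the list. The median change was then -0.19. The main filter has a limit too, as Kif11, Mki67 and Rrm2 were below 1 FPKM in both untreated libraries. Genes that low untreated can enter the test through the 24 h libraries, where they are high, which favours a rise.

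Some cell cycle genes went the other way. The centromere histone gene Cenpa fell to 15.5 and 18.1 FPKM after 24 h of IL4, against 35.7 and 40.1 FPKM untreated. Ncapg2, a condensin subunit that is not on the list, fell to 3.67 and 3.90 FPKM, against 29.0 and 27.7 FPKM, a change of -2.62 ± 0.12. Calls of Kif23 (-0.31 ± 0.10) and Pttg1 (-0.46 ± 0.16) were lost without single libraries, Pttg1 without any 1 of the 4 and Kif23 without the second untreated or the first 24 h library. Cyclin D1, Ccnd1, which opens the cycle, had 17.8 and 17.96 FPKM against 5.06 and 4.69 FPKM, and the inhibitor Cdkn1a, known as p21, rose too, to 9.40 and 10.3 FPKM, against 3.56 and 3.47 FPKM. The inhibitor Cdkn1c fell by 0.84 ± 0.13, and Sesn1, a target of p53, fell to 36.8 and 39.3 FPKM, against 132 and 133 FPKM.

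Many genes of G2 and mitosis carry a CCAAT box and a cell cycle homology region (CHR), read here as CCAAT and TTTGAA on either strand. These motifs were searched after the results were known. The CHR letters were present for 23 of 32 genes of G2 and mitosis with a window (71.9%), beside 16.7% of DNA replication genes and 14.7% of all genes, and CCAAT for 71.9%, 60.0% and 43.4%. Both were present for 20 of the 32 (62.5%), beside 7.27% of all genes. The CHR letters were also present for 53.3% of the effectors, whose windows hold less G and C. Members that fell held the motifs too: Cenpa and Kif23 had both CCAAT and CHR, and Pttg1 had neither. Windows of 3 genes that rose are shown with the CHR letters in capitals. They start 179 and 23 bases before the start in Top2a, 19 before it in Kif11, and 116 and 98 before it in Mki67. In Top2a the nearer one overlaps a match to the STAT6-type palindrome, since TTCAAA, the CHR on the other strand, begins with TTC. They lie at chr11:99024140-99024439 on the minus strand (Top2a), chr19:37376132-37376431 on the plus strand (Kif11) and chr7:135716330-135716629 on the minus strand (Mki67) of GRCm38.p6, and are written 5′ to 3′ in the direction of the gene.
Top2a: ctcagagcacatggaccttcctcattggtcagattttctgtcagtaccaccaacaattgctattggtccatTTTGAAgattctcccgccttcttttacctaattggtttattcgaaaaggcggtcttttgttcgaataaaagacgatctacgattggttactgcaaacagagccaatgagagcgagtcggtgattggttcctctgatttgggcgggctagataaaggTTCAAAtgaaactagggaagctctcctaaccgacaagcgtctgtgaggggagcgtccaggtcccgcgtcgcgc
Kif11: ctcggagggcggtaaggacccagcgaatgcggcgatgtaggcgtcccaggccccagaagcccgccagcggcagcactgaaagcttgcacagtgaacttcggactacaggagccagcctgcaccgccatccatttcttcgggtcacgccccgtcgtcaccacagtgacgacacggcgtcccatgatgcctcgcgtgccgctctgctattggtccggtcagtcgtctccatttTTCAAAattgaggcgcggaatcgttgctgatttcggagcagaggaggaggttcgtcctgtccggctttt
Mki67: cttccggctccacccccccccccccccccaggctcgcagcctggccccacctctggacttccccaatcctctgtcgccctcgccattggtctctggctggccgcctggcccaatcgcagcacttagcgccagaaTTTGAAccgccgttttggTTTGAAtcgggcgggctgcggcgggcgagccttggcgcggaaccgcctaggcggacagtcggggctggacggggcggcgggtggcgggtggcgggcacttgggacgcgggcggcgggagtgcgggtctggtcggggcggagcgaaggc

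**Figure D3:**
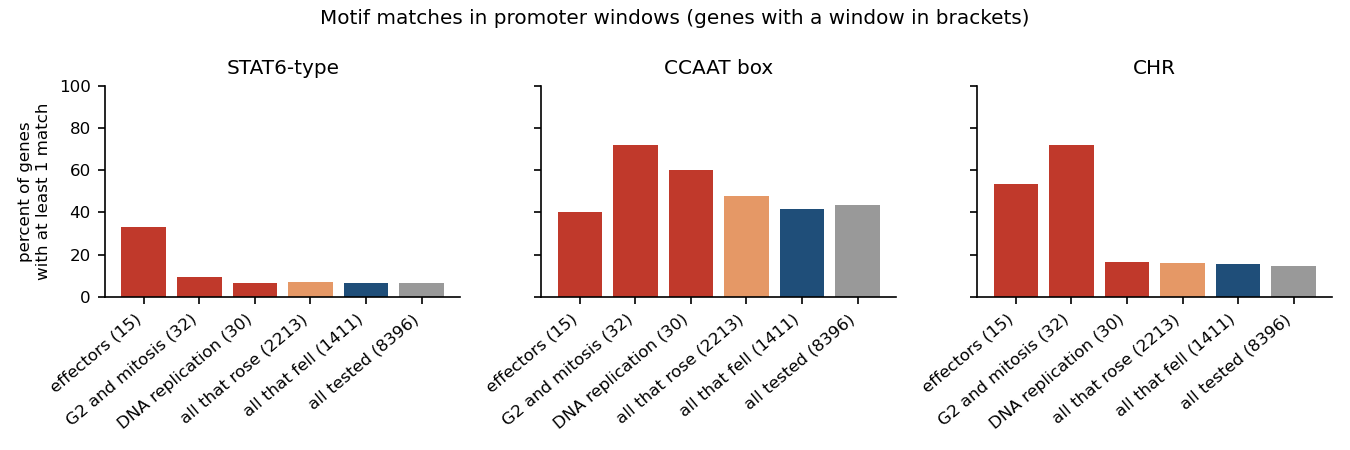
Percent of genes with at least 1 match in a promoter window, for the STAT6-type palindrome, the CCAAT box and the CHR. Bars give 3 gene lists (red), all genes that rose (orange) or fell (blue) after 24 h of IL4, and all tested genes (grey), with the number of genes that have a window in brackets. CHR matches reach 71.9% in G2 and mitosis, beside 14.7% of all genes.

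**Figure D4:**
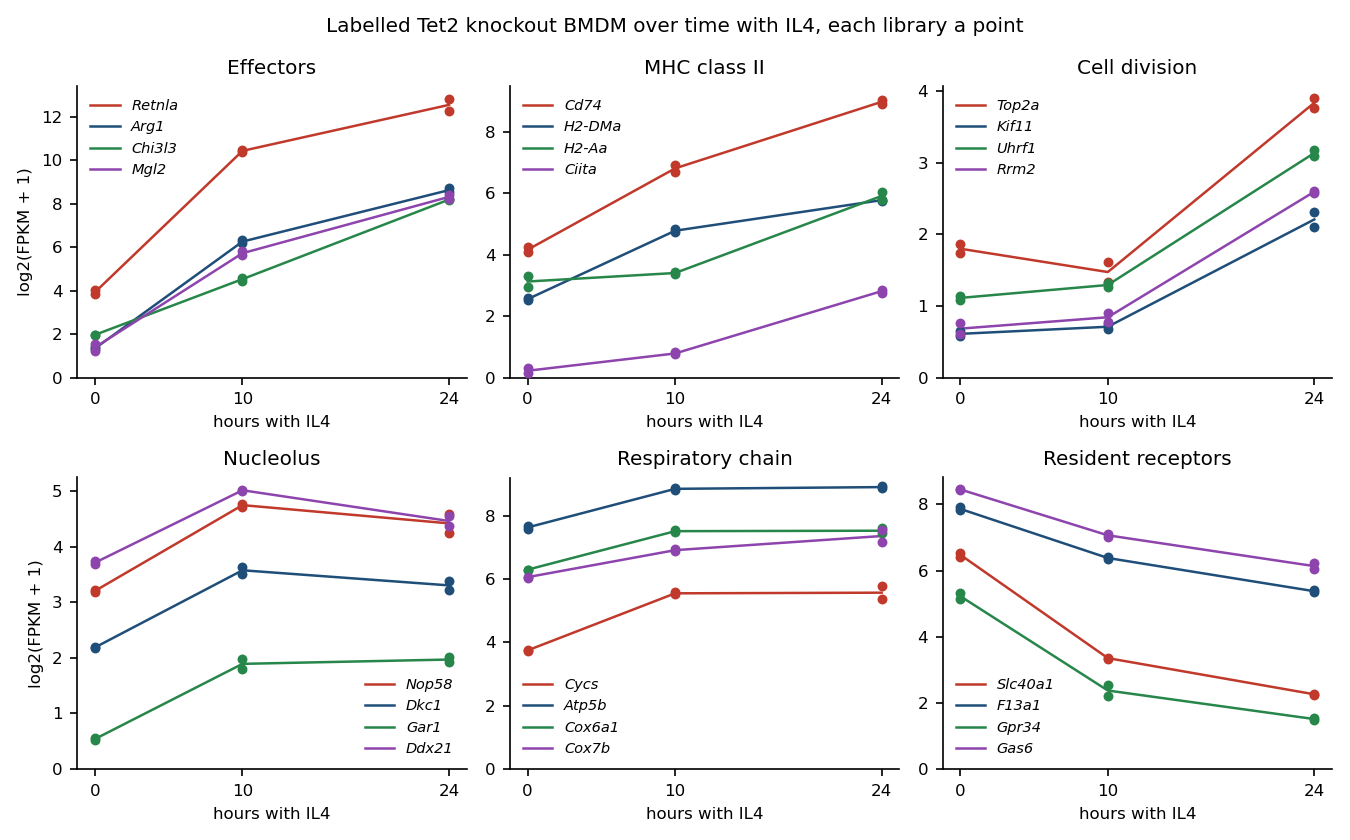
Levels over time with IL4 in labelled Tet2 knockout BMDM, as log2(FPKM + 1) against hours, for 4 genes of 6 groups. Points are single libraries and lines join group means. Cell division genes climb after 10 h, the nucleolar genes Nop58, Dkc1 and Ddx21 stand highest at 10 h and Gar1 about level at 10 and 24 h. The resident macrophage genes shown have come down by 10 h and are lower still at 24 h.

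The machinery of DNA methylation had 7 of 17 tested genes higher and 3 lower, at a median of 0.09, and 1 lower without either untreated library or the first 24 h library. Over all genes 26.5% rose and 17.1% fell. Beside Tet2 and Uhrf1, the de novo methyltransferase Dnmt3a rose to 21.0 and 21.1 FPKM after 24 h of IL4, against 13.3 and 13.2 FPKM untreated. The maintenance enzyme Dnmt1 had 13.9 and 14.8 FPKM against 18.1 and 17.8 FPKM, a fall of 0.30 ± 0.09 that was lost without either untreated library or the first 24 h library.

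The knockout response was then set against that of wild type by testing the difference of the 2 changes, knockout minus wild type. In this test 31 genes (0.295%) passed, 10 with a higher change in the knockout (0.0951%) and 21 with a lower one (0.2%), and 1913 had an unadjusted p under 0.05. The count rests on few libraries. It ranged from 11 to 1169 when 1 library was left out, and was 1169 without the first untreated wild-type library, whose gene values differed from its replicate by a median of 0.208 on the log2 scale (0.0725 between the untreated knockout libraries), 149 without the first 24 h wild-type library, 38 without the second, and 11 to 17 without any 1 knockout library or without the second untreated wild-type library. The second untreated wild-type library, alone in its group when the first is left out, had a lower total. It summed to 365117.5 FPKM, and the first to 445501.6 FPKM. The untreated knockout libraries summed to 443727.2 and 445852.6 FPKM. The part of this in the count was not tested. The median difference over all genes was -0.02.

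Arg1 rose in both genotypes and less in the knockout. It had 373 and 417 FPKM in knockout cultures after 24 h of IL4, against 1.63 and 1.45 FPKM untreated, and 1065 and 991 FPKM in wild-type cultures after 24 h, against 1.38 and 1.03 FPKM untreated. The difference of changes was -1.59 ± 0.17 (limma adjusted p = 0.0034), and it passed with each of the 8 libraries left out in turn. F10, which encodes coagulation factor X, had the same pattern, with 30.7 and 37.1 FPKM in the knockout after 24 h, against 0.903 and 0.947 FPKM untreated, and 84.1 and 90.7 FPKM in wild type, against 0.926 and 0.876 FPKM (difference -1.36 ± 0.15, limma adjusted p = 0.0034). At 10 h Arg1 stood at 71.7 and 79.6 FPKM in the knockout and 186 and 159 FPKM in wild type. Of the 24 effectors 3 passed with a lower change in the knockout, Arg1, Fn1 and Tgm2 (Fn1 was lost without any 1 knockout library), none passed with a higher one, and the median difference over the list was 0.13.

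Timp1, Tgm2, Cd4, Rbpj and Ccl8 were among the genes whose untreated values did not overlap between the genotypes, given with no test. Those of Arg1 did not overlap either but lay close, at 1.63 and 1.45 FPKM in the knockout and 1.38 and 1.03 FPKM in wild type. Timp1, an inhibitor of matrix proteases, had 13.1 and 16.0 FPKM in the knockout after 24 h, against 16.4 and 14.3 FPKM untreated, and 9.91 and 11.1 FPKM in wild type, against 2.80 and 2.68 FPKM, so that the difference of -1.70 ± 0.18 comes with a higher untreated level in the knockout. Tgm2 had the same form, at 22.7 and 22.3 FPKM against 20.6 and 18.6 FPKM in the knockout and 23.7 and 29.9 FPKM against 10.7 and 9.57 FPKM in wild type. Fibroblast markers also differed between the genotypes: they summed to 12.9 and 12.97 FPKM in the knockout after 24 h, against 32.9 and 29.9 FPKM untreated, and to 3.18 and 3.18 FPKM in wild type after 24 h, against 6.49 and 6.67 FPKM untreated. Their part in the Timp1, Tgm2 and Fn1 results was not tested. Cd4 was higher untreated in the knockout, at 12.97 and 12.99 FPKM, than in wild type, at 4.77 and 4.21 FPKM. So was Ccl8, at 26.1 and 21.2 FPKM in the knockout and 13.4 and 11.7 FPKM in wild type. After 24 h Ccl8 had 234 and 252 FPKM in the knockout and 295 and 331 FPKM in wild type. Rbpj, the DNA-binding partner of Notch, had 30.6 and 33.6 FPKM in the knockout after 24 h, against 7.97 and 8.21 FPKM untreated, and 23.9 and 25.04 FPKM in wild type, against 13.5 and 15.5 FPKM. The untreated values of Ednrb, an endothelin receptor, overlapped. It fell less in the knockout, to 14.8 and 14.5 FPKM, against 23.01 and 23.96 FPKM untreated, than in wild type, to 5.58 and 5.26 FPKM, against 27.9 and 22.7 FPKM (difference 1.38 ± 0.15, limma adjusted p = 0.0036). Timp1, F10, Ednrb and Arg1 passed with each library left out in turn, while Tgm2 and Cd4 passed in 2 of the 8 cases and Rbpj in 5.

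**Figure D5:**
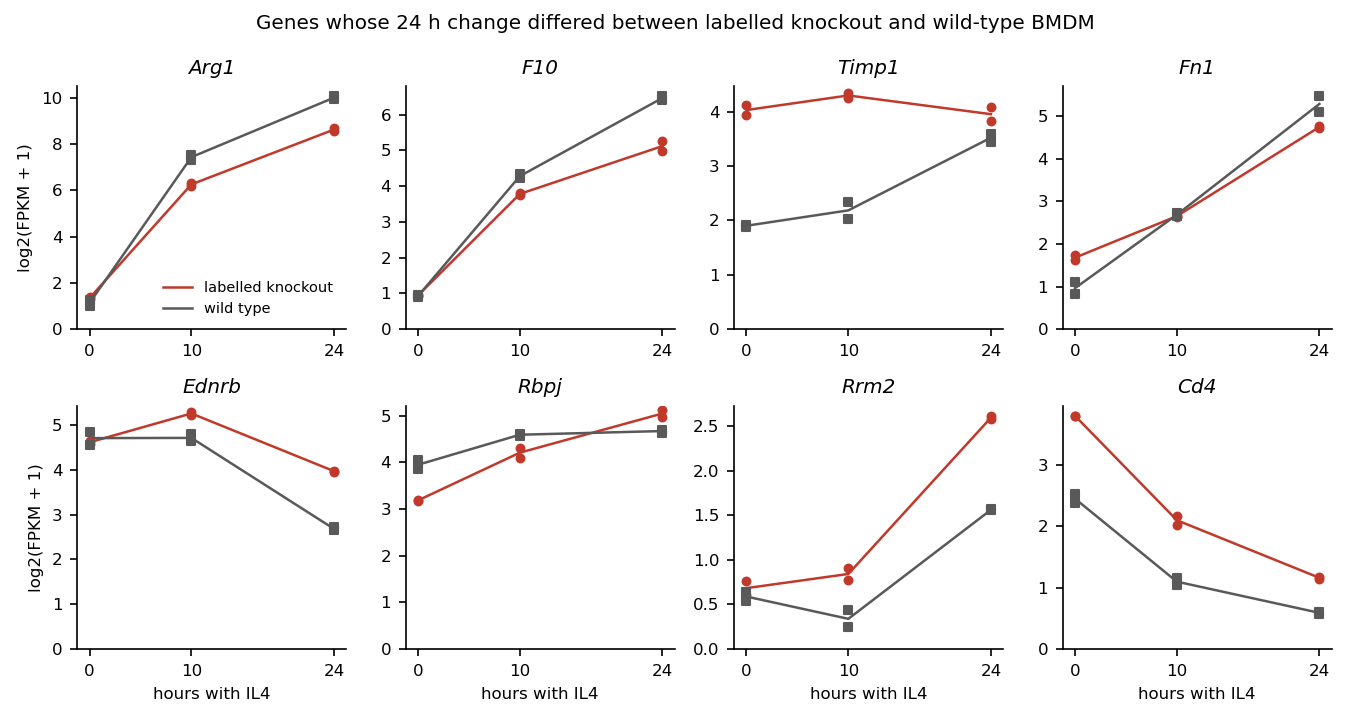
Levels of 8 genes whose 24 h change differed between genotypes, as log2(FPKM + 1) against hours with IL4, in labelled knockout (red circles) and wild-type BMDM (grey squares). Points are single libraries and lines join group means. Arg1 and F10 start close and end lower in the knockout, and Timp1 starts higher in the knockout.

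Cell division genes had larger changes in the knockout as values, with few calls. The difference of changes was positive for 32 of 37 genes of G2 and mitosis (median 0.38) and for 31 of 37 DNA replication genes (median 0.32; the wild-type changes had medians of 0.58 and 0.52), beside a median of -0.02 over all genes. Of these genes Rrm2 alone passed, at 0.94 ± 0.15 (limma adjusted p = 0.037), and it did so in 2 of the 8 cases with a library left out. Rrm2 had 4.98 and 5.10 FPKM in the knockout after 24 h, against 0.695 and 0.521 FPKM untreated, and 1.94 and 1.96 FPKM in wild type, against 0.559 and 0.451 FPKM. A gene tested needed 1 FPKM in 2 libraries, which the 24 h knockout libraries alone can supply. Genes that entered so lean toward a positive difference, so the counts of positive differences may be partly set by the filter. How many members entered that way was not counted. Oxidative phosphorylation had a median difference of -0.18 and cholesterol synthesis of -0.35, with no gene past the threshold.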

How the data were processed

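Values are FPKM in a gene table deposited by the authors. TopHat, Cuffdiff and mm9 are named in the submitters' processing notes; versions, the annotation and the handling of reads shared between genes are not given in the sources used here. FPKM are not counts, so no count test was run and absolute depth is unknown. The table holds 23309 gene models. Columns were matched to samples by name, and groups hold 2 libraries each, called biological replicates in the design text.

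The 12 BMDM libraries (6 groups) were fitted together on log2(FPKM + 1) with limma 3.58.1 (R 4.3.3) and an intensity trend, on the 10510 genes at 1 FPKM or more in at least 2 libraries, with Benjamini-Hochberg adjustment at 0.05, two-sided. The tests were the knockout change at 24 h and its difference from the wild-type change; 10 h changes are given without a test. The fit was tested on simulated data. Alternatives were another pseudocount, 2 filters, 2 scalings, fewer libraries, no trend, a replicate block and each library left out. Figures and tables used Python 3.11.15, pandas 2.3.3 and matplotlib 3.10.9.

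The members and lists were chosen with earlier results of these data known. Genes were named by rule: the 15 largest rises and 15 largest falls that passed without overlap at 5 FPKM or more, leaving out numbered models and small RNAs; per list, up to 6 members of smallest p in the majority direction and 3 in the other; the 10 most positive and 10 most negative differences past the threshold; and Tet1, Tet2, Tet3 and Il4ra. Stat6, Socs3, Mrc1, Pparg, Ccl17, Ccl22, Pdcd1lg2, Slc7a2, Il1rn and Rpph1 were added after their values were seen, and markers are named from the marker lists.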

Additional observations from a re-analysis of the deposited data

Results flagged for a closer look

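These are the genes whose 24 h change differed between the labelled knockout and wild type by the test of the difference itself and that reach 5 FPKM in some group; each value is knockout change minus wild-type change on the log2 scale. A lower change in the knockout was found for Timp1 (-1.70), Arg1 (-1.59), F10 (-1.36), Fn1 (-1.26), Ccl8 (-1.22), Tgm2 (-1.12), Dnajc17 (-0.981) and Cd4 (-0.779). A higher change was found for Ednrb (1.38), Rbpj (1.14), Msx3 (1.09), Rrm2 (0.939), Reps2 (0.856), Pgap1 (0.848) and Scn3a (0.735). With each of the 8 libraries left out in turn, Timp1, Arg1, F10 and Ednrb passed in all 8 cases, Rbpj in 5, Fn1, Ccl8 and Pgap1 in 4, Dnajc17, Msx3 and Reps2 in 3, and Tgm2, Cd4, Rrm2 and Scn3a in 2. Timp1, Tgm2, Ccl8 and Cd4 had higher untreated levels in the knockout, as given above. Msx3, a homeobox gene, had 6.90 and 6.69 FPKM in the knockout after 24 h and was listed at 0 in both untreated knockout libraries.

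Of the same genes, 5 are small RNAs or a pseudogene, whose FPKM is uncertain because few fragments fit in so short a gene: Rpl31-ps12 (4.55), Mirlet7a-1 (3.83), Snora43 (-2.46), Mir350 (-4.05) and Snord83b (-7.15). Of these 5, Snora43 passed in 4 of the 8 cases and the others in all 8.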

How the results depend on the processing

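The count of genes past the threshold was 4590 and ranged from 3174 to 3687 when 1 library was left out; every other alternative run for it stayed within 1.5 times. For the difference from wild type, 31 genes passed. The count was 17 with a pseudocount of 0.1, 96 with no filter, 11 with the stricter filter, 134 after median-of-ratios scaling, 115 after quantile normalization, 14 with only the libraries compared, and 11 to 1169 when 1 library was left out. Replicate differences of 1 group and another correlated at -0.141 to 0.149 over genes. Such values cannot show whether same-numbered libraries shared marrow, which the labels do not give. With a replicate block 4418 genes passed for the response and 25 for the difference. Reversed values were the knockout change of Snord83b (-0.31; -0.98 to 0.36 when 1 library was left out, above 0 without the first untreated or second 24 h library) and of Timp1 (-0.0763; -0.207 to 0.0541, above 0 without the first untreated or first 24 h library). Medians that turned were IL4 receptor signalling (-0.00952), chemokine receptors (-0.0885) and lysosome (-0.00883) after quantile normalization, and inflammatory cytokines (0.643) and G2 and mitosis (-0.188) with the stricter filter. Of 37 DNA replication genes 31 rose, and 11 with the stricter filter. The cause of these shifts was not tested. Depth is unknown, and 2 libraries a group limit the precision.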
